A study of Mus musculus with 6 samples.

Results

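The 10 genes described here, Rgs1, Rgs2, Rgs3, Rgs4, Rgs5, Rgs10, Rgs12, Rgs16, Rgs18 and Rgs19, encode regulators of G-protein signaling (RGS proteins). They were taken by gene symbol from the 24346 genes measured in endothelial cells (ECs) sorted from MC38 tumors, and they were picked as the family of Rgs5 and Rgs4, whose levels were higher in ECs from Apelin-KO mice than from WT mice. They were therefore chosen by the FPKM difference between genotypes, and their values are given as a description without a test. Of the 10 genes, 9 averaged 1 FPKM or more across all samples, and Rgs18 did not. The files hold 11 other RGS genes, which serve as one of the comparison lists.

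MC38 is a mouse colon carcinoma cell line. The cells were injected under the skin of WT or Apelin-KO mice, both of the C57BL/6 strain and 8 to 10 weeks old, and the tumors were taken at day 19. CD31+ CD45- cells, which carry an endothelial surface protein and lack a leukocyte one, were sorted from the dissociated tumors, and their RNA was sequenced in 3 WT and 3 Apelin-KO samples. The sample names of both groups also carry the word saline, and how it was given to these mice is not stated in the sources used here. The study describes saline given by osmotic pumps under the skin to tumor-bearing mice of both genotypes, but does not tie this to the sequenced samples. Apelin-KO mice lack Apelin in the whole animal, while the injected MC38 cells are not described as altered. The labels do not say that each sample came from a separate mouse, so that p-values measure only the spread between these samples.

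G-protein-coupled receptors switch on the alpha subunit of a G protein by loading it with GTP, and the alpha subunit then acts on effector enzymes together with the released beta and gamma subunits. RGS proteins speed up the hydrolysis of that GTP, mostly on alpha subunits of the Gi and Gq classes, and so shorten the signal. Rgs5 is widely used as a marker of pericytes, the mural cells around small vessels, and it is also known from the endothelium of tumors. APJ, the receptor of Apelin, which is encoded by Aplnr, signals mainly through Gi.

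The genotypes were checked on Apln, the gene of Apelin, which stood at 432, 435 and 504 FPKM in WT samples 1, 2 and 3 and at 9.96, 17.5 and 24.3 FPKM in Apelin-KO samples 1, 2 and 3. Its log2 difference, Apelin-KO minus WT, was -4.73 (standard error 0.29, adjusted p = 0.00747, limma with Benjamini-Hochberg adjustment), and it was the 1 gene of the 10964 tested, or 0.00912%, with an adjusted p-value under 0.05. The deposited values are FPKM (fragments mapped to a transcript, divided by its length and by the mapped reads), a scale on which levels of different genes can be compared per length. The read depth, estimated from the steps between low FPKM values, was 8920000 to 10170000 reads per sample. Pearson correlations between samples, across genes, lay between 0.948 and 0.974. All 15 endothelial markers were above 1 FPKM on average, while the summed markers of tumor epithelium were 0.186 to 1.74 FPKM. Whether MC38 cells express these epithelial markers was not tested. Markers of other cells were not near 0, with sums of 109 to 956 FPKM for macrophages and 152 to 412 FPKM for fibroblasts.

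Rgs5 and Rgs4 were higher in every Apelin-KO sample than in any WT sample, and the other members that averaged 1 FPKM or more overlapped between genotypes. The FPKM of Rgs5 was 2.26 times as high in Apelin-KO as in WT ECs by the group means, and that of Rgs4 was 2.56 times as high. Of all genes tested, 14.4% had groups that did not overlap, with 7.77% higher and 6.61% lower in Apelin-KO ECs. Since this contrast chose the family, nothing is read from the count of 2 of 9 beside these shares.

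Rgs5 and Rgs4 are neighbors. Rgs5 lies at chr1:169655501-169695813 of GRCm38 on the plus strand, with 5 exons in its longest coding transcript, and Rgs4 lies at chr1:169741477-169747642 on the minus strand, also with 5 exons. Their 3' ends face each other across 45.7 kb that hold 0 coding genes, so that their promoters lie on the outer sides of the pair. The 250 bases before each start are shown because these 2 genes share both a locus and a difference between genotypes. The sequences are from RefSeq (GRCm38.p6), at chr1:169655251-169655500 on the plus strand for Rgs5 and chr1:169747643-169747892 on the minus strand for Rgs4. They are written 5' to 3' with the start site just after the last base, and capitals mark matches to TATAAA and GCGTG.

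Rgs5 promoter: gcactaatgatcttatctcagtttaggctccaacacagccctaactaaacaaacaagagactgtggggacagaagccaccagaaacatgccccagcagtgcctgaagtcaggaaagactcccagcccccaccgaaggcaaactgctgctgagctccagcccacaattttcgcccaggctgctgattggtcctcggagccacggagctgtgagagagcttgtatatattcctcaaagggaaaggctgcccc

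Rgs4 promoter: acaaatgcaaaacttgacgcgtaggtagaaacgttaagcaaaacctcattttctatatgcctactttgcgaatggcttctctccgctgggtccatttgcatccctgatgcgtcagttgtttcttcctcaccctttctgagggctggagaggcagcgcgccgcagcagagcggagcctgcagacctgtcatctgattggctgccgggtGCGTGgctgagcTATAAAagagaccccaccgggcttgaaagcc

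The window of Rgs4 held TATAAA, the core of the TATA box, from 31 to 26 bases before the start, and GCGTG, one of the core forms of the hypoxia response element, from 43 to 39 bases before it. It also held 4 matches to the E-box CANNTG, which are not capitalised. Of 32817 promoter windows of the same length, 12.4% held TATAAA, 28.1% GCGTG and 66.2% CANNTG on either strand. The other motifs searched on both strands were ACGTG (16.6% of windows), the RBPJ site TGGGAA (21.6%), the FOXO site GTAAACA (3.16%) and the GC box GGGCGG (32.7%). None of these 7 letter strings was in the window of Rgs5, which says only that the letters are not there. Looser forms, such as the tatatat near the end of the Rgs5 window, were not searched, so that a TATA box of Rgs5 is not excluded. Both windows had 53.6% GC, but the Rgs4 window had 13 CpG sites and the Rgs5 window 4, where the median window had 6.00. RefSeq windows were found for 8 of the 10 genes, with 12 windows in all. At least 1 window of Rgs2, Rgs3, Rgs10, Rgs12, Rgs16 and Rgs19 held a GC box, in contrast to those of Rgs5 and Rgs4.

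Rgs5, a GTPase-activating protein for Gi and Gq alpha subunits, was at 3.48, 3.17 and 3.66 FPKM in WT samples 1, 2 and 3 and at 6.83, 7.86 and 8.67 FPKM in Apelin-KO samples 1, 2 and 3. The WT samples lay close together, and the lowest Apelin-KO sample was well above them. The group means were 3.44 ± 0.246 FPKM (SD, n = 3) in WT and 7.78 ± 0.923 FPKM (SD, n = 3) in ECs of Apelin-KO mice. The log2 difference on the FPKM + 1 scale was 0.98 with a standard error of 0.11. On this scale the fold of a gene at low FPKM is understated, and with a pseudocount of 0.1 in place of 1 the difference was 1.15. Estimated from FPKM and transcript length, these levels correspond to 110 to 137 reads per WT sample and 247 to 316 reads per Apelin-KO sample.

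Rgs4, which acts on the same classes of alpha subunit and is known for its high expression in brain, was at 1.47, 1.74 and 0.635 FPKM in WT samples 1, 2 and 3 and at 3.18, 3.83 and 2.81 FPKM in Apelin-KO samples 1, 2 and 3. WT 3 was the lowest, and every Apelin-KO sample was above every WT sample. The means were 1.28 ± 0.574 FPKM (SD, n = 3) in WT and 3.27 ± 0.514 FPKM (SD, n = 3) in ECs of Apelin-KO mice, with a log2 difference of 0.93 (standard error 0.21). The size for this low gene depended on the pseudocount, since 0.1 in place of 1 gave 1.38. Its reads were few, with an estimated 40.6, 42.5 and 15.9 in the WT and 80.9, 107 and 72.1 in the Apelin-KO samples.

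When any 1 sample was left out, the log2 differences were from 0.91 to 1.06 for Rgs5 and from 0.71 to 1.08 for Rgs4. The ratio of Rgs5 to Rgs4 within a sample was 2.37, 1.83 and 5.76 in WT and 2.14, 2.06 and 3.09 in Apelin-KO ECs, so that the pair kept similar proportions in all samples except WT 3 and, less so, Apelin-KO 3. Of the genes around the pair, Ccdc190, the next gene on the Rgs4 side, has no value here, and Nuf2, Hsd17b7 and Ddr2 were not higher in every Apelin-KO sample. Nuf2, a kinetochore gene upstream of Rgs5, was 9.38 ± 1.20 FPKM (SD, n = 3) in WT and 10.4 ± 2.76 FPKM (SD, n = 3) in ECs of Apelin-KO mice (log2 difference 0.12, adjusted p = 0.868, limma). Beyond Ccdc190, Hsd17b7, a cholesterol synthesis enzyme, had a log2 difference of -0.20 (standard error 0.10, adjusted p = 0.586, limma), and Ddr2, a collagen receptor, one of -0.74 (standard error 0.26, adjusted p = 0.509, limma). Hsd17b7 was at 3.97, 4.25 and 3.58 FPKM in WT and 2.99, 3.46 and 3.40 FPKM in Apelin-KO samples 1, 2 and 3. It was thus lower in every Apelin-KO sample, as were 6.61% of all genes tested. Fibroblast markers, 11 of 12 of them with a higher mean in WT ECs, summed to 233 to 412 FPKM in WT and 152 to 238 FPKM in Apelin-KO ECs, and their part in the value of Ddr2 was not tested.

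**Figure D1:**
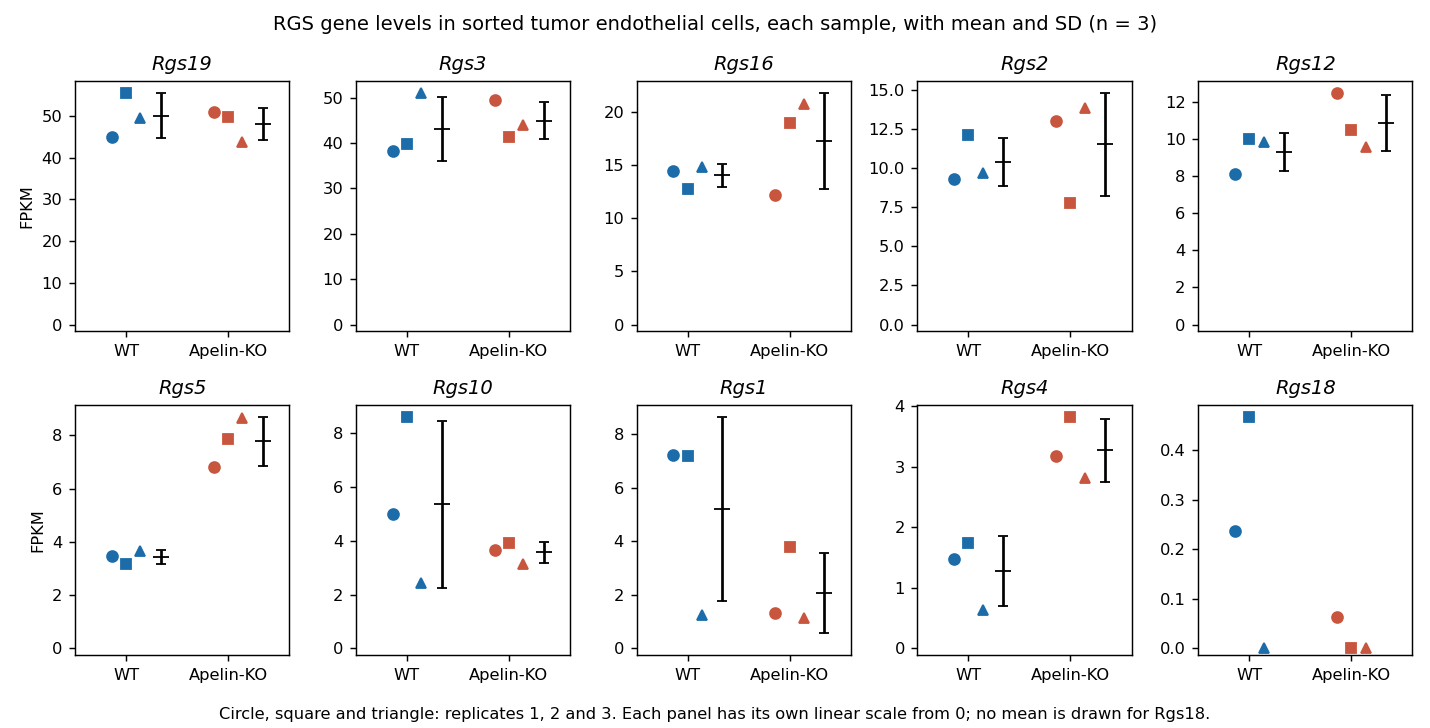
Level in FPKM (vertical axis, linear, separate scale in each panel) of the 10 RGS genes in 3 WT (blue) and 3 Apelin-KO (red) samples, ordered by mean level. Points are samples, bars are mean and SD, and the genotypes are fully separated for Rgs5 and Rgs4, with Rgs5 at 3.17 to 3.66 FPKM in WT and 6.83 to 8.67 FPKM in Apelin-KO ECs.

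The family was dominated by other members. Rgs19 and Rgs3 had the highest levels, followed by Rgs16, Rgs2, Rgs12, Rgs5, Rgs10, Rgs1, Rgs4 and Rgs18 in the order of the mean FPKM over the 6 samples. Of the 9 pairs of neighbors in this order, 7 overlapped over the samples, and only the steps from Rgs3 to Rgs16 and from Rgs4 to Rgs18 did not. The summed FPKM of the family was 133, 151 and 143 in WT samples 1, 2 and 3 and 153, 148 and 148 in Apelin-KO samples 1, 2 and 3, and these ranges overlapped. Rgs3 and Rgs19 together made up 62.8%, 62.9% and 70.4% of it in WT and 65.5%, 61.7% and 59.4% in Apelin-KO ECs. Rgs5 and Rgs4 together made up 3.74%, 3.24% and 2.999% in WT and 6.54%, 7.90% and 7.77% in Apelin-KO ECs.

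**Figure D2:**
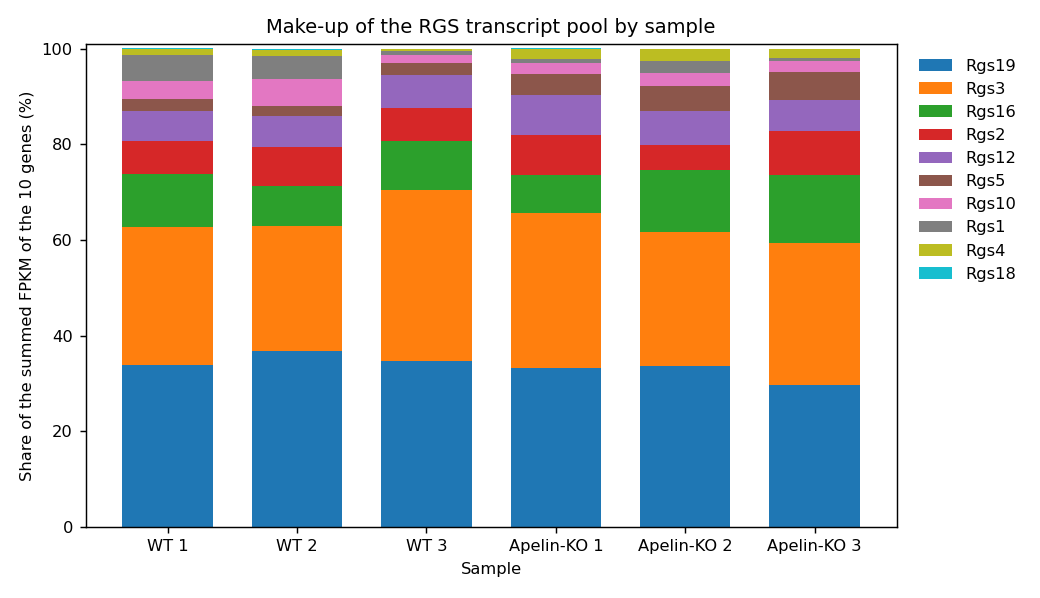
Share in percent (vertical axis) that each RGS gene takes of the summed FPKM of the 10 genes, 1 bar per sample. Rgs3 and Rgs19 fill 59.4% to 70.4% of every bar, and the share of Rgs5 and Rgs4 is 2.999% to 3.74% in WT and 6.54% to 7.90% in Apelin-KO ECs.

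Rgs19, also called GAIP, is a GTPase-activating protein of Gi alpha subunits that is tied to membranes and vesicle traffic. It was at 44.9, 55.6 and 49.6 FPKM in WT samples 1, 2 and 3 and at 50.9, 49.8 and 43.7 FPKM in Apelin-KO samples 1, 2 and 3. The groups overlapped, and the log2 difference was -0.05 (standard error 0.12). Rgs3, a member with several long and short isoforms that acts on Gi and Gq, was at 38.3, 39.7 and 51.1 FPKM in WT samples 1, 2 and 3 and at 49.4, 41.4 and 44.0 FPKM in Apelin-KO samples 1, 2 and 3. WT 3 was the highest and WT 1 the lowest, and the log2 difference was 0.07 (standard error 0.14). These genes exceeded 81.1% (Rgs3) and 83.0% (Rgs19) of the genes tested in mean FPKM, while Rgs5 exceeded 31.0% and Rgs4 12.3%. The annotated Rgs3 gene has 17 transcripts, and the files give 1 value per gene, so that the isoforms were not told apart.

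Rgs16, a regulator of Gi and Gq signals that is induced in many cells on stimulation, was at 14.5, 12.8 and 14.9 FPKM in WT samples 1, 2 and 3 and at 12.2, 19.02 and 20.8 FPKM in Apelin-KO samples 1, 2 and 3. Apelin-KO 2 and 3 were above all WT samples, but Apelin-KO 1 was the lowest of the 6, and the log2 difference was 0.25 (standard error 0.20), or 0.47 without Apelin-KO 1, when the groups did not overlap, nor did those of 27.7% of all genes tested. Rgs2, which prefers Gq and is known for damping the response of vessels to constricting hormones, was at 9.26, 12.1 and 9.68 FPKM in WT and at 12.99, 7.74 and 13.8 FPKM in Apelin-KO samples 1, 2 and 3. Apelin-KO 2 was the lowest of the 6, and without it the groups no longer overlapped (27.4% of all genes tested did not), with a log2 difference of 0.35 in place of 0.11 (standard error 0.22). Rgs12, a large protein with domains for binding receptors and Ras beside its RGS domain, was at 8.13, 10.005 and 9.82 FPKM in WT and at 12.5, 10.5 and 9.58 FPKM in Apelin-KO samples 1, 2 and 3. Its log2 difference was 0.20 (standard error 0.13), and Apelin-KO 3 lay within the WT range. Without Apelin-KO 3 the groups of Rgs12 and of 22.8% of all genes tested did not overlap, and the log2 difference was 0.28. Rgs3, Rgs12 and Rgs16 each overlap an annotated antisense gene (Gm11209, Gm43791 and Gm28513), and since the strand setting of the counting is not stated, reads of the 2 strands cannot be told apart.

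Rgs1, Rgs10 and Rgs18 are known mainly from blood cells, and their values followed another pattern. Rgs1, which dampens chemokine receptors in lymphocytes and other leukocytes, was at 7.24, 7.18 and 1.26 FPKM in WT samples 1, 2 and 3 and at 1.32, 3.80 and 1.12 FPKM in Apelin-KO samples 1, 2 and 3. WT 1 and WT 2 stood above all the others, WT 3 lay among the Apelin-KO samples, and the log2 difference was -0.89 (standard error 0.55). Its within-genotype SD of log2(FPKM + 1) was 0.89, larger than that of 98.9% of the genes tested, whose median was 0.16. Rgs10, a small regulator of Gi that is abundant in microglia and other myeloid cells, was at 4.99, 8.61 and 2.44 FPKM in WT and at 3.66, 3.92 and 3.15 FPKM in Apelin-KO samples 1, 2 and 3. Here too WT 1 and WT 2 were high and WT 3 was the lowest of the 6, so that the log2 difference of -0.35 (standard error 0.34) was within the spread. Without WT 3, both genes were higher in WT with no overlap, as were 14.1% of all genes tested, and the log2 difference became -1.52 for Rgs1 and -0.73 for Rgs10. Rgs10 is also covered by few reads, an estimated 15.1 to 52.3 per sample.

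Rgs18, a regulator found in platelets and their precursors, was listed at 0.237, 0.468 and 0 FPKM in WT samples 1, 2 and 3 and at 0.0640, 0 and 0 FPKM in Apelin-KO samples 1, 2 and 3. The highest of these values corresponds to an estimated 7.65 reads, and no fold is given. Of 10 platelet markers, Gp6 and Treml1 were listed at 0 in every sample, and the summed level of the list was 8.58 to 11.3 FPKM in WT and 7.30 to 8.99 FPKM in Apelin-KO ECs.

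Rgs1 and Rgs18 lie in 1 cluster on chromosome 1 with Rgs2, which had another pattern. Of the 21 RGS genes annotated, 11 lie on chromosome 1, among them 6 of the 10 members. Along the chromosome, Rgs2 is followed after 134.5 kb by Rgs13, after another 64.9 kb by Rgs1, then after 267.4 kb by Rgs21 and after 185.0 kb by Rgs18, with 0 coding genes in any of these gaps. Rgs13 and Rgs21 were listed at 0 in all 6 samples. Rgs16 lies 40.0 kb from Rgs8, which was at 0.0870 FPKM or less in every sample, and Rgs16 is at 12.2 to 20.8 FPKM. Neighboring RGS genes therefore ranged from 0 to moderate FPKM in the same samples.

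Because the sorted cells could carry RNA of other cell types, marker genes were set beside the members. Fewer cells of a type and less RNA per cell cannot be told apart in such bulk samples. The sum of 15 pericyte markers was 708, 582 and 749 FPKM in WT samples 1, 2 and 3 and 713, 758 and 650 FPKM in Apelin-KO samples 1, 2 and 3, and 12 of the 15 had a higher mean in Apelin-KO ECs. Most of this sum came from Mcam, Kcnj8 and Abcc9, which were left out after their values were seen. The other 12 summed to 26.5, 29.3 and 20.8 FPKM in WT and 31.2, 31.3 and 27.0 FPKM in Apelin-KO ECs, so that the ranges overlapped, and 10 of the 12 had a higher mean in Apelin-KO ECs. Among them, Pdgfrb was at 5.96 ± 1.39 FPKM (SD, n = 3) in WT and 7.42 ± 0.813 FPKM (SD, n = 3) in ECs of Apelin-KO mice, whereas Cspg4 was at 2.50 ± 0.906 FPKM (SD, n = 3) in WT and 1.67 ± 0.177 FPKM (SD, n = 3) in ECs of Apelin-KO mice. Cnn1 was listed at 0 in all samples except Apelin-KO 1. For 3 of the 12, Des, Vtn and Ndufa4l2, every Apelin-KO sample was above every WT sample, as for 7.77% of all genes tested, among which Des and Vtn, at a mean under 1 FPKM, are not counted. Ndufa4l2, the most abundant of the 3, was at 1.19 ± 0.436 FPKM (SD, n = 3) in WT and 2.49 ± 0.870 FPKM (SD, n = 3) in ECs of Apelin-KO mice (log2 difference 0.66, adjusted p = 0.501, limma). Des was at 0.206, 0.464 and 0.645 FPKM in WT samples 1, 2 and 3 and at 0.966, 0.915 and 0.773 FPKM in Apelin-KO samples 1, 2 and 3, with means of 0.438 and 0.885 FPKM. Vtn was listed at 0.382, 0.359 and 0 FPKM in WT samples 1, 2 and 3 and at 1.45, 0.945 and 0.479 FPKM in Apelin-KO samples 1, 2 and 3. By the group means the FPKM of Des and Ndufa4l2 differed about as much between genotypes as that of Rgs5, and that of Vtn more. These 3 are low markers, named because their groups did not overlap. Of the 12 markers, 6 averaged 1 FPKM or more. Beside Ndufa4l2, they were Pdgfrb and Acta2, each with a log2 difference of 0.29, Anpep (0.01), Cspg4 (-0.35) and Tagln. Tagln, like Cspg4, had a lower mean in Apelin-KO ECs, and of these 6 all but Ndufa4l2 had overlapping groups.

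Rgs5 was then expressed per 1000 FPKM of markers, a ratio chosen after seeing the data. Against the 12 pericyte markers it was 132, 108 and 176 in WT and 219, 252 and 321 in Apelin-KO samples 1, 2 and 3, or 1.90 times as high by the means, with no overlap. The same ratio of Rgs4 was 55.5, 59.2 and 30.5 in WT and 102, 122 and 104 in Apelin-KO ECs, or 2.26 times as high. Against all 15 pericyte markers, Rgs5 was 2.18 times and Rgs4 2.34 times as high, also with no overlap. Without any marker the ratios were 2.26 for Rgs5 and 2.56 for Rgs4. With 1 sample left out, the 12-marker ratio of Rgs5 fell to 1.70 without Apelin-KO 3 and rose past 2.18 without WT 3. The sum of 15 endothelial markers was also higher in Apelin-KO ECs, with 4371 to 5214 FPKM in WT and 5406 to 5693 FPKM in Apelin-KO ECs, and all 15 had a higher mean there. Relative to that sum, Rgs5 was 1.94 times and Rgs4 2.13 times as high in Apelin-KO ECs, again with no overlap. The genotype difference of Rgs5 and Rgs4 is the one they were chosen by, most of the 12-marker sum came from Acta2, Tagln and Pdgfrb, and the part of pericyte RNA in the values of Rgs5 and Rgs4 was not tested.

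WT 2 and WT 1, the high samples of Rgs1 and Rgs10, were also the highest for macrophage markers. Their sum over 12 genes was 532, 956 and 256 FPKM in WT samples 1, 2 and 3 and 109, 303 and 283 FPKM in Apelin-KO samples 1, 2 and 3, and all 12 had a higher mean in WT ECs. None of the 12 was at 0 in all samples. Per 1000 FPKM of these markers, Rgs1 was 13.6, 7.51 and 4.90 in WT and 12.1, 12.5 and 3.97 in Apelin-KO ECs, with a ratio of the means of 1.10 in place of 0.398. Rgs10 was 9.38, 9.003 and 9.52 in WT and 33.4, 12.9 and 11.1 in Apelin-KO ECs, with a ratio of 2.06 in place of 0.669, and the Apelin-KO samples were all above the WT samples. The groups of the Rgs1 ratio overlapped, and its value rested on single samples, with 0.950 without Apelin-KO 1, 0.926 without Apelin-KO 2, 0.902 without WT 3 and 1.53 without WT 1. The Rgs10 ratio of the means rested on Apelin-KO 1 and was 1.29 without it. Among the WT samples the ratio of Rgs10 hardly varied. Markers of T and NK cells, where Rgs1 is also at home, summed to 13.3 to 16.4 FPKM in WT and 8.65 to 11.1 FPKM in Apelin-KO ECs, with 10 of 11 higher on average in WT. Most of that sum came from Lck and Nkg7, while Cd3e, a defining T cell gene, was near 0, at means of 0.169 FPKM in WT and 0.165 FPKM in Apelin-KO ECs. The part of leukocyte RNA in the values of these genes was not tested.

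**Figure D3:**
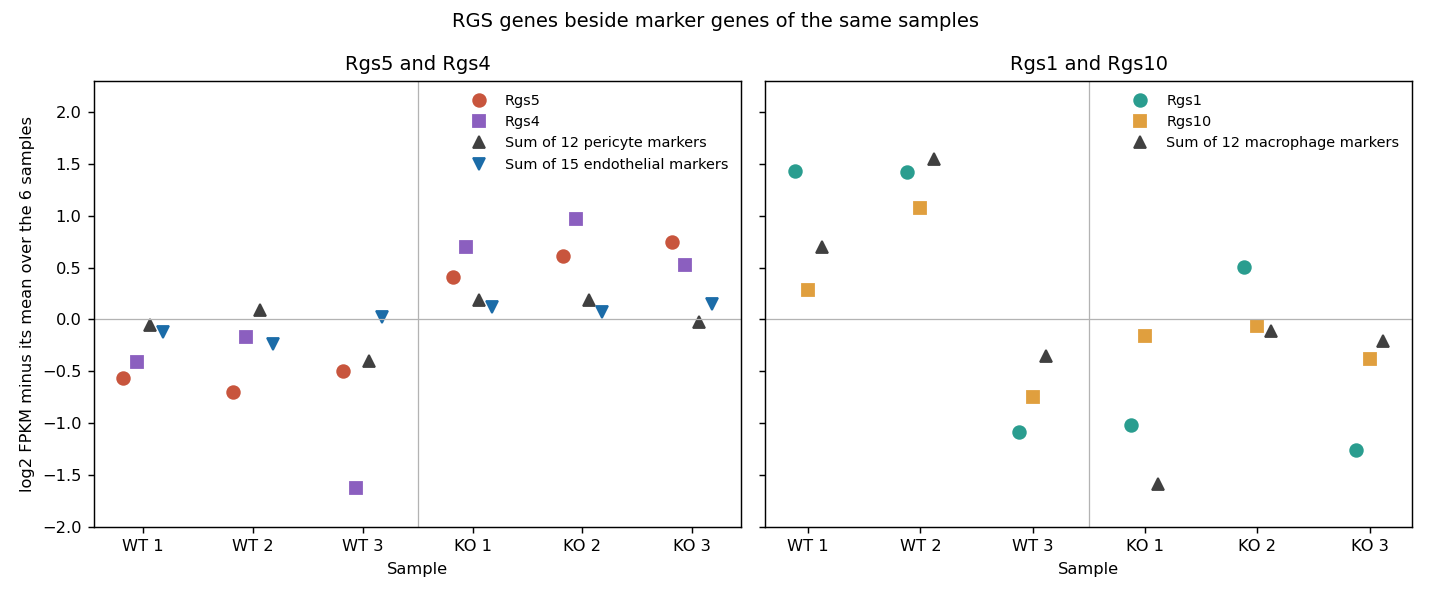
Log2 FPKM of RGS genes and of summed marker genes, each relative to its mean over the 6 samples (vertical axis), in every sample (horizontal axis). In the left panel Rgs5 and Rgs4 are below 0 in WT and above 0 in Apelin-KO ECs, while the 12 pericyte markers span 20.8 to 29.3 FPKM in WT and 27.0 to 31.3 FPKM in Apelin-KO ECs, and in the right panel WT 1 and WT 2 are the high samples of Rgs10 and of the 12 macrophage markers.

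The genes most like Rgs5 over the 6 samples were sought among all genes tested, by the root mean square distance of log2(FPKM + 1) after centring each gene on its mean. The closest were Cndp2, a cytosolic dipeptidase (distance 0.116), S1pr3, a sphingosine-1-phosphate receptor (0.130), Cds1, an enzyme of phospholipid synthesis (0.168), Prom1, a membrane glycoprotein (0.177), and Cpt1a, which brings fatty acids into mitochondria (0.184). The median distance of all genes was 0.518, and Rgs4 was at rank 100 with 0.309. Cndp2 was at 22.2 to 24.4 FPKM in WT and 46.6 to 48.0 FPKM in Apelin-KO ECs. It was also the closest gene to Rgs4 (distance 0.234), followed by Hoxa5, a homeobox gene (0.242), Zfyve19 (0.270), Zfp768 (0.275) and Dus3l (0.276), with a median of 0.549 for all genes. Rgs5 was at rank 13 from Rgs4. Since both genes were chosen for their difference between genotypes, genes with a like difference come first in these lists.

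The rest of the pathway was described by 8 lists with 144 genes, of which 82 averaged 1 FPKM or more and were tested. None had an adjusted p-value under 0.05 (limma with Benjamini-Hochberg adjustment over all 10964 genes), and the lowest was 0.241, for S1pr3. At an unadjusted p-value under 0.05, 8 of the 82 genes (9.76%) were higher and 7 (8.54%) lower in Apelin-KO ECs. The shares of all genes tested were 4.25% higher and 5.17% lower. Both directions together held 15 of the 82 genes, against 1033 of the 10964 genes tested, or 9.42%. The median log2 difference of the 82 genes was 0.07, and that of all genes tested was 0.01. The count of 15 depended on single samples and was 7 without WT 1, 7 without WT 2 and 8 without Apelin-KO 3. Of the 13 among the 15 whose groups did not overlap, Gna15, Gnb2, Plcb4 and S1pr3 kept an unadjusted p-value under 0.05 in each alternative that tested them. The other 9 lost it in at least 1 alternative, and leaving out any single sample cost 3 to 6 of them. S1pr3, at a mean of 0.782 FPKM in WT, and Gna15, at 0.693 FPKM in Apelin-KO ECs, passed the filter only through the other genotype. So did Lpar1 and P2ry13, at 0.761 and 0.540 FPKM in Apelin-KO ECs. Neither S1pr3 nor Gna15 was tested at a mean of at least 5 FPKM.

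Among the other RGS genes and their binding partners, 2 of 13 were tested, Rgs14 and Rgs9, and neither passed. Rgs14, which combines an RGS domain with a second G-protein-binding motif, was at 1.53 ± 0.179 FPKM (SD, n = 3) in WT and 1.28 ± 0.219 FPKM (SD, n = 3) in ECs of Apelin-KO mice, and Rgs9, known from the retina and striatum, was at 1.07 ± 0.182 FPKM (SD, n = 3) and 0.948 ± 0.710 FPKM (SD, n = 3). Of the 9 genes of proteins with an RGS homology domain outside the family, 8 were tested and 0 had an unadjusted p-value under 0.05 in limma. Arhgef1, a guanine nucleotide exchange factor with such a domain, was the highest of them, with 62.2 ± 4.59 FPKM (SD, n = 3) in WT and 71.8 ± 7.28 FPKM (SD, n = 3) in ECs of Apelin-KO mice.

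The G protein alpha subunits included genes far more abundant than any RGS gene. Gnas, the highest of the 13, encodes the subunit of Gs, a class outside those on which these RGS proteins mostly act, and was at 812 ± 52.3 FPKM (SD, n = 3) in WT and 942 ± 60.2 FPKM (SD, n = 3) in ECs of Apelin-KO mice (log2 difference 0.21, adjusted p = 0.564, limma). Gna15, a subunit of the Gq class found mainly in blood cells, was the 1 alpha subunit of 10 tested with an unadjusted p-value under 0.05. It was at 1.84, 2.203 and 1.24 FPKM in WT and 0.605, 0.994 and 0.480 FPKM in Apelin-KO samples 1, 2 and 3, with a log2 difference of -0.70 (standard error 0.17, adjusted p = 0.501, limma). Gnai2, a Gi subunit, was at 682 to 828 FPKM in WT and 769 to 896 FPKM in Apelin-KO ECs. Of the beta and gamma subunits, 9 of 15 were tested, and Gng11 was the highest at 813 ± 76.3 FPKM (SD, n = 3) in WT and 833 ± 114 FPKM (SD, n = 3) in ECs of Apelin-KO mice. Gnb2, a beta subunit, was at 63.5, 61.8 and 72.2 FPKM in WT and 91.0, 83.7 and 86.8 FPKM in Apelin-KO samples 1, 2 and 3. Its groups did not overlap, and the log2 difference was 0.40 (standard error 0.10, adjusted p = 0.501, limma).

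Of the 62 receptors listed, 31 were tested, and 4 had an unadjusted p-value under 0.05 in each direction. S1pr3, a receptor coupled to Gi, Gq and other G proteins, was at 0.915, 0.748 and 0.684 FPKM in WT and 2.31, 1.97 and 2.85 FPKM in Apelin-KO samples 1, 2 and 3. All Apelin-KO samples were above all WT samples, with a log2 difference of 0.92 (standard error 0.13, unadjusted p = 0.000168 and adjusted p = 0.241, limma). S1pr1, the main sphingosine-1-phosphate receptor of ECs, was at 422 ± 18.5 FPKM (SD, n = 3) in WT and 492 ± 33.5 FPKM (SD, n = 3) in ECs of Apelin-KO mice, with an adjusted p of 0.543 from limma. Ednrb, an endothelin receptor, was at 206, 140 and 170 FPKM in WT and 218, 236 and 292 FPKM in Apelin-KO samples 1, 2 and 3, and Lpar6 and Adora2a, receptors of lysophosphatidic acid and adenosine, had log2 differences of 0.29 and 0.26.

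Lpar1, a lysophosphatidic acid receptor common in stromal cells, was higher in WT ECs, at 2.23, 1.82 and 1.04 FPKM in WT and 0.808, 0.574 and 0.902 FPKM in Apelin-KO samples 1, 2 and 3. Its groups did not overlap, the log2 difference was -0.59, and the part of stromal RNA in this value was not tested. The adjusted p-values of Lpar1, Ednrb, Lpar6 and Adora2a were 0.501 to 0.522 in limma. Aplnr, the receptor of Apelin, was at 334, 366 and 387 FPKM in WT and 568, 336 and 325 FPKM in Apelin-KO samples 1, 2 and 3, with overlapping groups and an adjusted p of 0.880 from limma. P2ry6 and P2ry13, nucleotide receptors named after their values were seen, had an unadjusted p-value under 0.05 but overlapping groups.

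Among the kinases and arrestins that switch receptors off, Adrbk1, which encodes GRK2, was at 21.1 ± 1.22 FPKM (SD, n = 3) in WT and 25.5 ± 2.03 FPKM (SD, n = 3) in ECs of Apelin-KO mice (log2 difference 0.26, adjusted p = 0.521, limma), and it was the 1 of 5 tested with an unadjusted p-value under 0.05. Arrb1, a beta-arrestin and the highest of the list, was at 40.4 ± 3.14 FPKM (SD, n = 3) in WT and 46.4 ± 2.59 FPKM (SD, n = 3) in ECs of Apelin-KO mice, with overlapping groups. Among 5 other regulators of G proteins tested, 1 had an unadjusted p-value under 0.05 in each direction. Ric8, a chaperone of alpha subunits, had a log2 difference of 0.25 (adjusted p = 0.525, limma) and Gpsm2, which binds Gi alpha subunits and orients the mitotic spindle, one of -0.29 (adjusted p = 0.513, limma).

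Of 18 effector genes, 12 were tested. Plcb4, a phospholipase C driven by Gq, was at 6.54, 6.27 and 7.25 FPKM in WT and 8.10, 9.64 and 10.2 FPKM in Apelin-KO samples 1, 2 and 3, with a log2 difference of 0.42 (standard error 0.12, adjusted p = 0.501, limma). Adcy7, an adenylyl cyclase common in blood cells, was at 5.88, 6.78 and 2.71 FPKM in WT and 1.63, 2.58 and 2.22 FPKM in Apelin-KO samples 1, 2 and 3, with a log2 difference of -0.90 (adjusted p = 0.501, limma). WT 3 was close to the Apelin-KO samples for Adcy7, as it was for Rgs1. Adcy4, the most abundant effector of the list, was at 64.3 ± 5.05 FPKM (SD, n = 3) in WT and 67.0 ± 7.06 FPKM (SD, n = 3) in ECs of Apelin-KO mice.

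**Figure D4:**
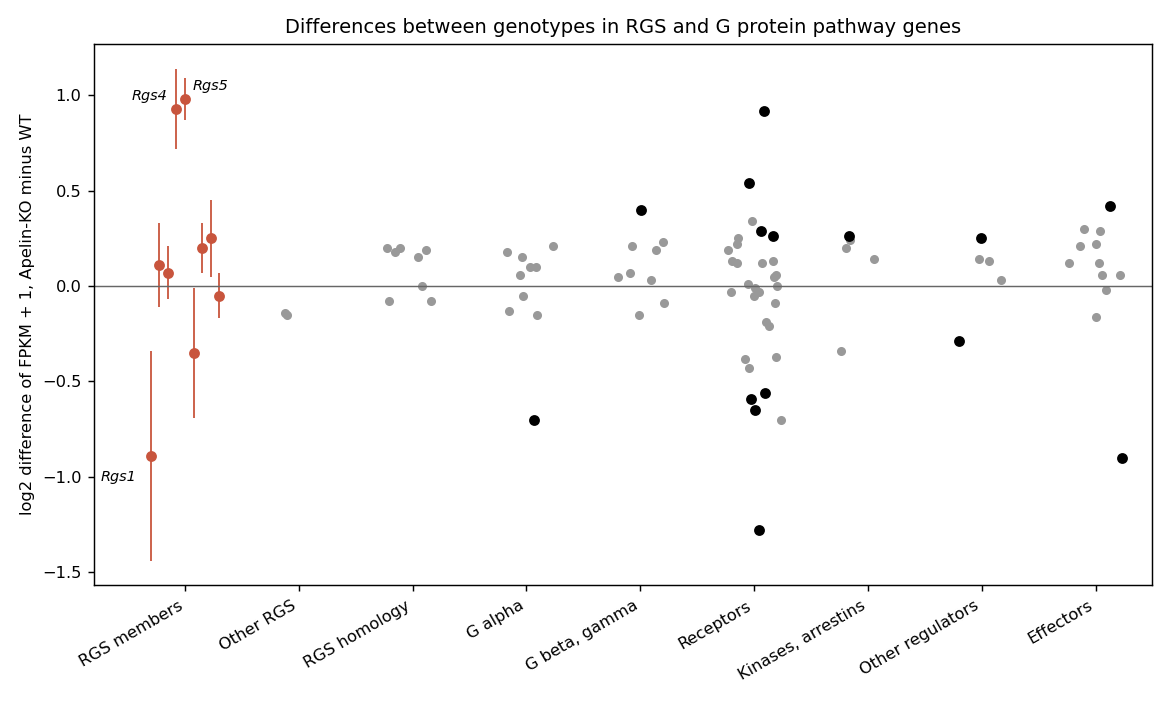
Log2 difference of FPKM + 1, Apelin-KO minus WT (vertical axis), of the RGS members (red, with standard error) and of each tested gene of the 8 pathway lists (grey, or black where the unadjusted limma p-value is under 0.05). Rgs5 at 0.98 and Rgs4 at 0.93 lie near S1pr3 at 0.92, and Rgs1 at -0.89 lies near Adcy7 at -0.90.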

How the data were processed

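RNA was measured in CD31+ CD45- ECs of MC38 tumors in 3 samples from WT and 3 from Apelin-KO mice. The authors prepared stranded mRNA libraries and sequenced them as 75-base single-end reads. Per the labels (the submitters' processing notes), bcl2fastq 2.17.1.14, TopHat2 2.1.1, Bowtie2 2.2.4, SAMtools 1.0, Cufflinks 2.2.1 and the mm10 build were used. The study's methods name other versions for some of these tools. The annotation and the strand setting are not given in the sources used here. The deposited FPKM, as the authors computed them, were used unchanged.

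Genes that averaged 1 FPKM or more, 10964 of 24346, were compared as log2(FPKM + 1) with limma 3.58.1 in R 4.3.3 by a two-sided moderated test with Benjamini-Hochberg adjustment, without a replicate block. The script was tested on simulated data. The members and lists were chosen with earlier results of these data known. Named are the members, Apln, the neighbors of Rgs5 and Rgs4 and their 5 closest genes, and in each pathway list the most abundant gene and up to 6 genes with the lowest p-values among those with an unadjusted p-value under 0.05 and no overlap. One gene that meets this rule is not reported here. Gnai2, Aplnr, Rgs9, P2ry6 and P2ry13 were named after their values were seen. Depth was estimated from 3742 genes with a single transcript, assuming 200-base fragments. Between 68.7% and 72.8% of low values were within 0.1 of a whole read, against 20% by chance, so that no count test was run. Depth intervals were not computed, because read counts are only estimates. Alternatives changed the pseudocount, filter, scaling, variance model, block and samples. Positions are from GENCODE (GRCm38) and promoters from RefSeq. Python 3.11.15, numpy 2.4.6, pandas 2.3.3 and matplotlib 3.10.9 were used.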

Additional observations from a re-analysis of the deposited data

How the results depend on the processing

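Among the members, 2 genes (Rgs4 and Rgs5) had groups that did not overlap, and leaving out 1 sample at a time gave 2 to 5 genes. The share of all genes tested that did not overlap was 20.2% to 29.97% in those settings, against 14.4% with all samples. The highest count, without WT 3, added Rgs1, Rgs3 and Rgs10, at a share of 29.97%. Relative to macrophage markers the ratio of Apelin-KO to WT turned to 1.10 for Rgs1 and 2.06 for Rgs10, or 0.902 to 1.53 and 1.29 to 2.49 when 1 sample was left out. Leaving out 1 sample gave log2 differences of -0.73 to 0.01 for Rgs10, -0.03 to 0.35 for Rgs2, -0.01 to 0.20 for Rgs3 and -0.13 to 0.03 for Rgs19. The 1 gene with an adjusted p-value under 0.05 became 2 genes with no filter, with a mean of at least 5 FPKM or with an intensity trend, 0 with each gene's own variance, and 0 to 3 when 1 sample was left out. The 466 genes higher in Apelin-KO ECs at an unadjusted p-value under 0.05 became 224 to 547, and the 567 lower genes 314 to 738, when 1 sample was left out, with the lowest of both without WT 2. The lower genes were 330 with a mean of at least 5 FPKM and 376 with each gene's own variance. The pathway count of 15 was 7 with a mean of at least 5 FPKM and 7 to 18 when 1 sample was left out. The cause was not tested. Deviations of same-numbered samples from their group means correlated at -0.139, 0.207 and -0.019, and those of different-numbered samples at -0.195 to 0.212. Replicate numbers were therefore not used as pairs in the main fit. A shared batch is not excluded by these values, because the deviations within a genotype depend on one another. With the replicate block, 1 gene had an adjusted p-value under 0.05, 364 genes were higher, 529 lower, and 13 pathway genes passed the unadjusted threshold. Scaling by median ratios moved the median log2 difference of all genes from 0.010 to -0.000. Depth limits Rgs4, Rgs10 and Rgs18 most.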
